A study of Rattus norvegicus with 8 samples.

Results

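The control liver RNA of this rat lavender oil (LO) study was deposited as 2 pools, named Group1 and Group2 in the labels and called pool 1 and pool 2 here. These values describe how far the controls of the 2 pools differed, gene by gene, without any LO. The members were the control channels of the 4 liver arrays, out of 8 arrays in the whole series. They were taken by dye, Cy3 on replicate 1 and Cy5 on replicate 2, and pool 1 was always set against pool 2 in the same dye.

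The study used 12 male rats aged 7 weeks, 6 in each group, which received 10% ethanol as the diluent (control, 0 mg/kg) or LO at 5 mg/kg in 10% ethanol, given into the stomach daily for 13 days, and were dissected after 14 days. The sample characteristics give the strain as Wistar, while the growth protocol gives F334 and the methods speak of Fischer rats. Blocks were sampled from the whole liver, total RNA was pooled within each group, and each array carried a control pool beside an LO pool. The sources used here do not say whether the 2 pools held different rats, different blocks or different extracts.

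Each pool was 1 RNA sample, and its 2 arrays were a dye swap of it, so each pool counted as 1 replicate and no test was possible. The 4 arrays lay on 1 slide and each array held 1 pool. Pool and array therefore cannot be told apart, and the spread of the 2 dyes printed below is technical. In bulk RNA, fewer cells of a type and less RNA per cell cannot be told apart either.

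The liver is built mostly of hepatocytes, which make plasma proteins, bile acids and most drug-metabolizing enzymes. Hepatocytes near the portal vein and near the central vein use different genes, and bile acid, lipid and drug metabolism also follow the time of day through the circadian clock. Sinusoidal endothelium, stellate cells, Kupffer cells (the resident macrophages) and bile duct cells make up most of the rest. The labelled tissue held to its markers. All 10 hepatocyte markers read had every liver control value above every spleen control value. For the 6 of them that were above background on both spleen arrays too, the difference was 3.72 to 13.4 on the log2 scale. The 3 B and plasma cell markers lay below the spleen in every liver value, and 0 of the 3 were above background on all 4 liver arrays.

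Signals are given as log2 values relative to the median of their own channel, over features well above background in that channel on all 4 arrays, so that 0 stands for that median. A difference is pool 1 minus pool 2, and is positive where pool 1 was higher. A probe was called where the difference reached 1.5-fold in the same direction in Cy3 and in Cy5. Of 41012 probes, 16828 were well above background on all 4 arrays and were compared. Between 45.2% and 57.9% of the 43379 features were well above background in a control channel, fewer in Cy3 than in Cy5. Pool 1 had fewer than pool 2 in Cy3 (45.2% against 47.6%) and in Cy5 (56.9% against 57.9%). Its median linear signal over all features was lower, 35.5 against 41.6 in Cy3 and 40.3 against 43.7 in Cy5. The median used for scaling was higher in pool 1, 336 against 331 and 378 against 321. Scaling took a single constant from each channel, so it shifted the dim and the bright features of a channel alike. The lower median of pool 1 over all features was present before scaling.

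Among the probes compared, 539 (3.2%) were higher in pool 1 and 1142 (6.79%) were higher in pool 2, together 9.99%. After quantile normalization the split was 756 against 977, and after normexp background correction with an offset of 50, which by its construction draws dim signals together, it was 128 against 300. The larger differences lay on the side of pool 2. At 2-fold in both dyes 18 probes were higher in pool 1 and 310 in pool 2, and at 4-fold there were 0 and 5. The dyes gave opposite calls for 19 probes, and 74.1% of probes stayed within 1.5-fold in both. Pearson's r between the Cy3 and the Cy5 difference was 0.78, over the 16332 probes that were also compared in the LO channel. The Cy3 and Cy5 values came from different arrays but from the same 2 RNA pools. The SD of the difference over probes was 0.44 in Cy3 and 0.51 in Cy5, and the median SD between the 2 dyes for a probe was 0.11. The probe just inside the threshold differed by -0.59 in Cy3 and -0.74 in Cy5, and the one just outside by -0.67 and -0.58.

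**Figure D1:**
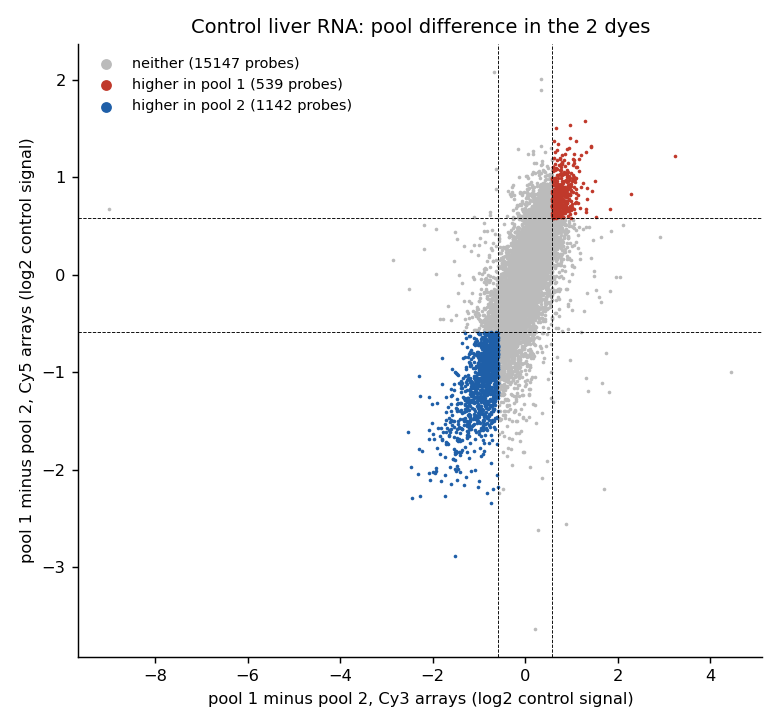
Pool 1 minus pool 2 of the log2 control signal for each of the 16828 probes compared, with the Cy3 arrays on the x axis and the Cy5 arrays on the y axis. Dashed lines mark 1.5-fold. Red marks the 539 probes higher in pool 1 in both dyes and blue the 1142 higher in pool 2, of which 18 and 310 lie past 2-fold in both dyes, and the grey points far from the diagonal are probes that were extreme in a single dye.

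The leading genes were taken as the 15 in each direction with the largest value of the smaller of the 2 dyes' differences. In pool 1 they were *Jam2*, *Cldnd1*, *Hsp90aa1*, *Txnip*, *Leprot*, *Ces1dl1*, *Ilrun*, *Gnb1*, *Maf*, *Rchy1*, *Tob1*, *Mtmr9*, *Eif4ebp2*, *Rdx* and *Sft2d2*. Their mean differences ran from 0.98 to 1.26, and 11 of the 15 were also called in the LO channel. In all 15 both pool 1 values lay above both pool 2 values, which also held for 34% of all probes. The 15 were picked for large differences in these same values, so their lack of overlap adds no support. After normexp the mean of 9 of the 15 was under 1.5-fold.

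*Jam2*, a junctional adhesion molecule of endothelium, read -0.25 in Cy3 and 0.38 in Cy5 in pool 1, against -1.44 and -0.85 in pool 2. Both values of pool 1 were the higher ones, by 2.32-fold on average (log2 difference 1.21 ± 0.024, SD of the 2 dyes). *Txnip*, which binds thioredoxin and answers to glucose, read -0.35 and 0.47 in pool 1 against -1.40 and -0.78 in pool 2. The pools did not overlap, and the mean difference was 1.15 ± 0.14. *Leprot*, an endosomal protein whose gene overlaps that of the leptin receptor, read -0.64 and -0.70 in pool 1 against -1.67 and -1.73 in pool 2. A brighter probe of *Leprot* differed by only 0.38 and 0.24 and was not called.

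*Ces1dl1*, a carboxylesterase-like gene, was at 1.58 and 1.76 in pool 1 and at 0.53 and 0.76 in pool 2, a 2.04-fold difference. In the LO channel *Ces1dl1* differed by 1.05 in Cy3 and 1.03 in Cy5, close to the 1.05 and 1.01 of the controls. *Rdx* (radixin), which ties actin to the membrane of the bile canaliculus, read 0.89 and 1.08 in pool 1 against -0.06 and -0.22 in pool 2. A brighter probe of *Rdx* differed by only 0.45 and 0.53 and was not called. *Eif4ebp2*, a repressor of translation, read 1.89 and 2.25 in pool 1 against 0.94 and 1.24 in pool 2. Its other, dimmer probe differed by -0.11 and 0.84. At the called probes of *Ces1dl1*, *Rdx* and *Eif4ebp2* the lowest pool 1 value was above the highest pool 2 value. *Gnb1*, *Maf*, *Ilrun* and *Mtmr9* were the 4 of the 15 genes that were not called in LO. *Maf*, a bZIP transcription factor, differed by 1.08 and 0.98 in the controls and by 0.74 in Cy3 and 0.37 in Cy5 under LO.

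In pool 2 the 15 genes were *Cdh22*, *Nr2f1*, *Or2av9*, *Vom2r40*, *Krt14*, *Slc28a1*, *Or10d5*, *Aoc3*, *Slc10a6*, *Or52x1*, *Nradd*, *Or8c11*, *Or8b3*, *Sema4f* and *Cyp2b12*. Their mean differences ran from -2.06 to -1.61. All 14 that could be compared in the LO channel of the same arrays were called higher in pool 2 there as well. *Slc28a1* was not compared in LO. In all 15 both pool 2 values lay above both pool 1 values, which held for 30.4% of all probes. Here too the genes were picked from these same values, so this adds no support. After normexp 0 of the 15 had a mean under 1.5-fold. Many of these genes code for receptors of the nose, *Or2av9*, *Or10d5*, *Or52x1*, *Or8c11* and *Or8b3* for odorant receptors and *Vom2r40* for a vomeronasal receptor.

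*Cdh22*, a cadherin, had the largest value by this rule. It read -1.88 in Cy3 and -1.80 in Cy5 in pool 1, against 0.20 and 0.24 in pool 2, a 4.16-fold difference. *Krt14*, a keratin of basal epidermal cells, read -2.41 and -2.51 in pool 1 against -0.51 and -0.74 in pool 2, 3.57-fold. Both pool 2 values were above both pool 1 values in each gene. *Aoc3*, a vascular amine oxidase, read -2.48 and -2.74 in pool 1 against -0.78 and -1.03 in pool 2. *Slc10a6*, a transporter of sulfated steroids in the bile acid transporter family, read -2.60 and -2.11 in pool 1 against -0.52 and -0.42 in pool 2. *Cyp2b12*, a cytochrome P450 known from skin, read 0.80 and 0.84 in pool 1 against 2.36 and 2.72 in pool 2. Its difference was -1.56 and -1.88 in the controls and -1.86 and -1.73 under LO.

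**Figure D2:**
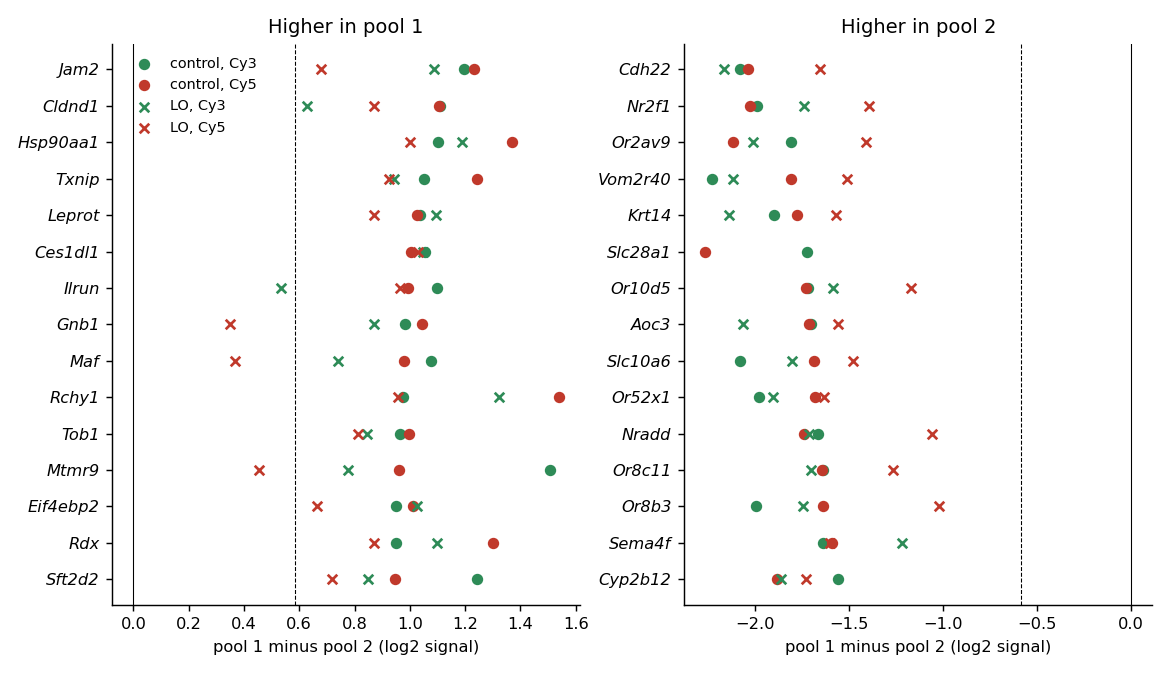
Pool 1 minus pool 2 (log2 signal, x axis) for the 15 genes in each direction, with circles for the control channel and crosses for the LO channel, green for Cy3 and red for Cy5. The dashed line marks 1.5-fold. All crosses on the pool 2 side lie past 1.5-fold, while 4 genes on the pool 1 side have a cross short of it, and *Slc28a1* has no LO values.

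Receptors of the chemical senses were then counted as a family, grouped by symbol after the calls had been seen. They are G protein-coupled receptors known chiefly from sensory neurons of the nose and from taste cells. The array held 1082 such probes, of which 74 were well above background on all 4 control channels. Of the 74, 45 (60.8%) were higher in pool 2 and 0 in pool 1, where 6.79% and 3.2% of all probes were called. All 74 mean differences were below 0, with a median of -0.94 and a range from -2.02 to -0.080. Under the other scalings and background correction the median lay between -0.99 and -0.60, and 0 or 1 of the 74 differences was above 0. After normexp 22 of the 74 were called. Since these probes were mostly dim, other probes with signals between the quartiles of theirs were counted too. Of those 4035 probes 12.2% were higher in pool 2 and 4.68% in pool 1, with a median difference of 0.031.

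*Vom2r40* differed most, with -2.51 in Cy3 and -2.49 in Cy5 in pool 1 against -0.28 and -0.68 in pool 2. *Or2av9* followed, at -0.81 and -1.54 in pool 1 and 1.0 and 0.58 in pool 2. *Taar8c*, a trace amine receptor, read -2.53 and -1.56 in pool 1 against -1.08 and -0.53 in pool 2. All 3 had their pool 2 values on top, as had 69 of the 74 receptor probes and 30.4% of all probes. *Or2ak6*, well above the channel median, read 1.74 and 1.41 in pool 1 and 2.51 and 2.54 in pool 2 and was called as well. *Or4f7c*, by far the brightest of these probes, read 6.54 and 6.23 in pool 1 and 6.48 and 6.45 in pool 2, the smallest difference of the 74.

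In the LO channel 70 of the receptor probes could be compared, 44 were higher in pool 2 and 0 in pool 1, against 6.85% and 3.01% of all probes there, with a median difference of -0.90. Called in both channels were 38 receptor probes. A further 39 of the 1082 receptor probes were above background on both pool 2 arrays and on neither pool 1 array. The other way round there were 0. Of the 41012 probes on the array these counts were 371 and 137. Such probes passed the filter only through the pool where they were high, so these counts add no support to the calls. Whether the signal of these probes came from the receptor transcripts was not tested.

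**Figure D3:**
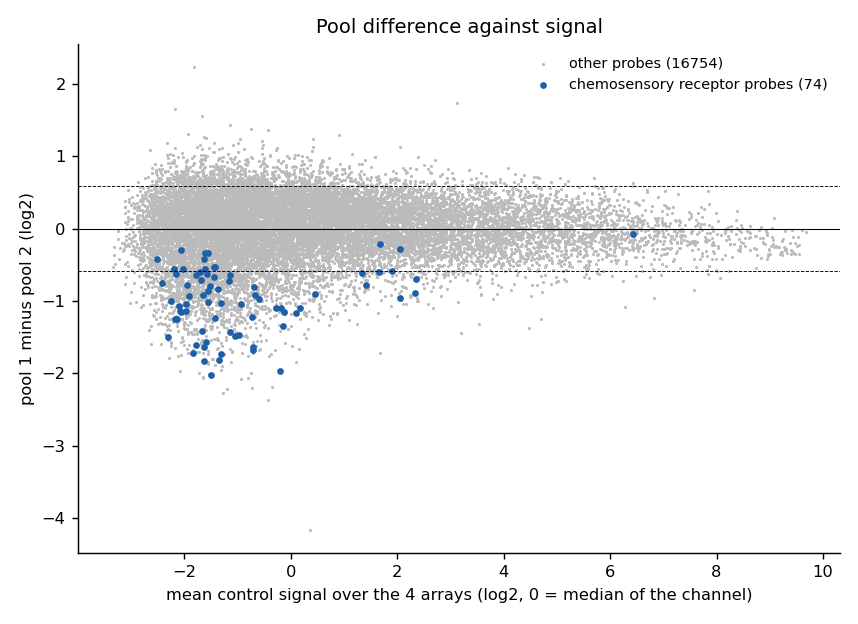
Pool 1 minus pool 2, mean of the 2 dyes (log2, y axis), against the mean control signal of each probe over the 4 arrays (log2, x axis, 0 at the channel median), with 74 chemosensory receptor probes in blue and the other 16754 in grey. Dashed lines mark 1.5-fold. All 74 receptor probes lie below 0, and the differences of all probes narrow towards bright signals.

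Other families were counted the same way, beside the 6.79% (pool 2) and 3.2% (pool 1) of all probes. Of 92 ribosomal protein probes 0 were higher in pool 1 and 1 in pool 2, with a median of -0.086. Of 34 probes for subunits of the proteasome, the complex that breaks down tagged proteins, 0 were called. Of 51 cytochrome P450 probes 1 was higher in pool 1 and 3 (5.88%) in pool 2. Of 140 solute carrier probes, which cover membrane transporters, 1 was higher in pool 1 and 11 (7.86%) in pool 2. The pool 2 shares of both families were near that of all probes, but that share is not matched for signal. The median signals of the ribosomal, proteasome and P450 probes (6.18, 4.54 and 4.30) lay in the brightest of 5 equal bands. In that band 1.13% of probes were higher in pool 2 and 1.10% in pool 1. The solute carrier median of 0.33 lay in the middle band, with 6.63% and 4.40%. Of 8 keratin probes 2 were higher in pool 2.

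Fewer probes were called among the brightest than among the dim ones. In 5 equal bands from dim to bright, 11.5%, 12.2%, 6.63%, 2.56% and 1.13% of probes were higher in pool 2. For pool 1 the shares were 3.57%, 4.37%, 4.40%, 2.59% and 1.10%. The median signal of called probes was -0.61 for pool 1 and -1.24 for pool 2, against 0.097 for the others. The 10 spike-in control probes differed by -0.59 to -0.14 in Cy3 and by -0.38 to 0.24 in Cy5 after the same scaling, and 0 were called. How much of the pool differences of dim probes went with the array was not tested.

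A further 371 probes were above background on both pool 2 arrays and on neither pool 1 array, and 137 the other way round. For these only a lower bound of the fold could be given. It was the mean of the bright pool against the higher of the probe's own dim signal and the lowest signal well above background. The bound reached 1.5-fold for 353 and 59 probes respectively. On the side of pool 2 the leading genes were *Or2n1l* (at least 4.11-fold higher), *Or14j5e* (at least 4.02-fold), *Or52s19* (at least 4.00-fold), *Lhfpl5* (at least 3.98-fold) and *Or51f23c* (at least 3.92-fold). Apart from *Lhfpl5*, a gene of the hair cells of the inner ear, these code for odorant receptors. On the side of pool 1 the leading genes were *Gcnt1*, a glycosyltransferase (at least 2.95-fold higher), *Btbd9* (at least 2.07-fold), *Matr3*, a nuclear matrix protein (at least 1.90-fold), *Smoc1* (at least 1.82-fold) and *Pacc1* (at least 1.71-fold). The genes of both sides passed the filter only through the pool where they were high, so they add no support.

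Genes of known liver pathways and cell types were read in 31 lists, each gene from its probe with the highest mean control signal. Over all 4983 named genes read in this way, 104 (2.09%) were higher in pool 1 and 316 (6.34%) in pool 2, together 8.43%, and the median difference was -0.0011. Of 359 list genes, 5 (1.39%) were higher in pool 1 and 10 (2.79%) in pool 2, and 20 of the 31 lists held no called gene. The 5 were *Cyp7a1*, *Slco1b2*, *Elovl6*, *Birc5* and *Axin2*. The 10 were *Nr1d1*, *Per1*, *Cyp2b12*, *Cyp2d4*, *Nqo1*, *Hmmr*, *Aldh1b1*, *Cldn4*, *Cel* and *Msln*. In the LO channel 7 of these 15 were called the same way, and after normexp the mean of 9 of the 15 was under 1.5-fold. The medians of the cholangiocyte, stellate cell, enterocyte, xenobiotic, cholesterol and fatty acid oxidation lists, all near 0, changed sign under at least 1 other scaling.

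**Figure D4:**
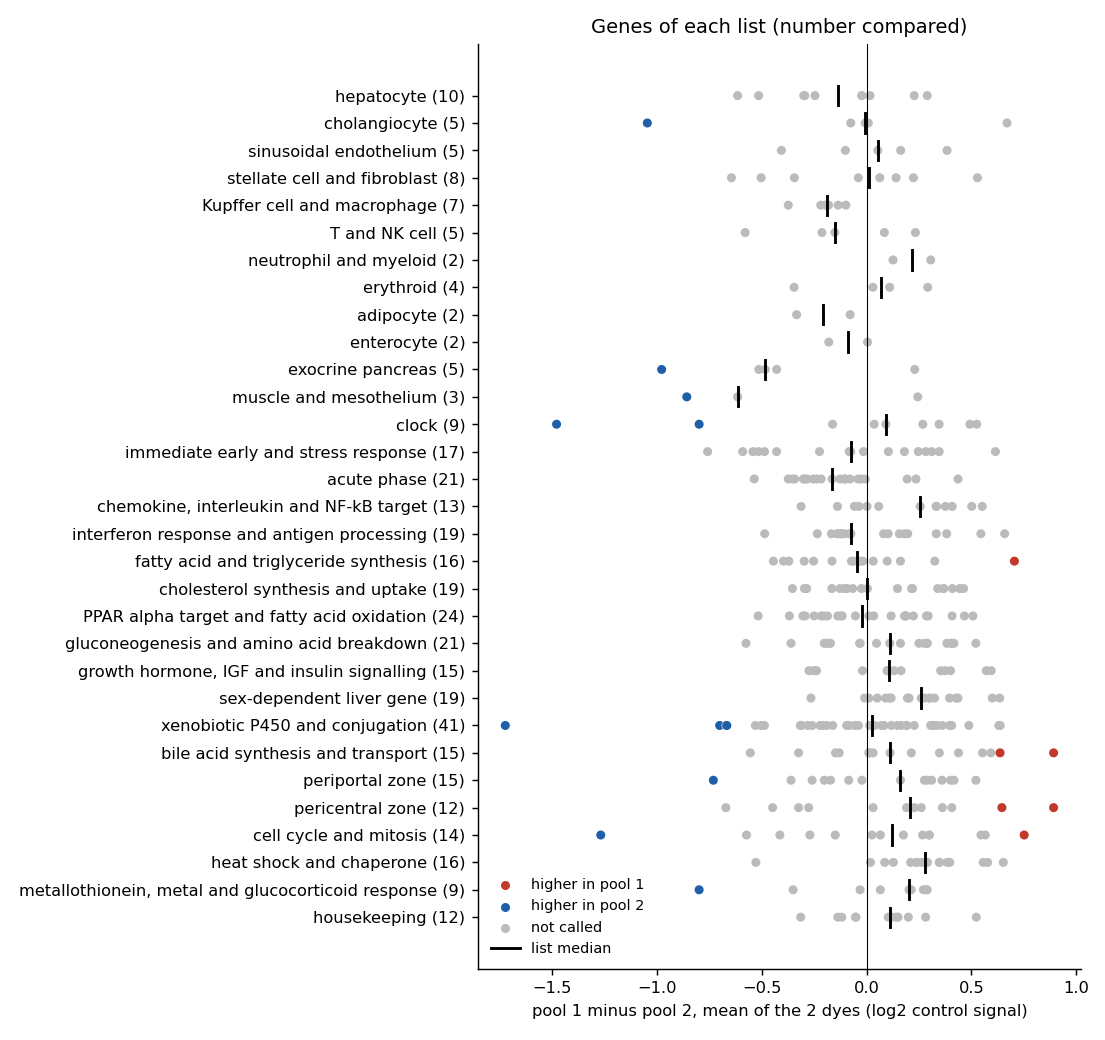
Pool 1 minus pool 2, mean of the 2 dyes (log2 control signal, x axis), for each gene of 31 lists (y axis, with the number compared). Each point is a gene, coloured where it was called, and the black bar is the list median. In 20 of the 31 lists no point is coloured, and *Cyp2b12* at -1.72 and *Nr1d1* at -1.48 lie farthest out.

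Of 9 clock genes compared, 2 were higher in pool 2 and 0 in pool 1, with a median of 0.092. *Nr1d1* codes for REV-ERB alpha, a repressor that peaks once a day in liver. It read -1.55 in Cy3 and -1.67 in Cy5 in pool 1 against -0.18 and -0.09 in pool 2. Both pool 2 values were on top, and the difference was 2.78-fold (-1.48 ± 0.15). Under LO *Nr1d1* differed by -1.69 and -1.19 and was called as well. *Per1*, a period gene and repressor of the clock, read -2.39 and -2.27 in pool 1 against -1.64 and -1.42 in pool 2, 1.74-fold, but missed the rule in LO with -0.61 and -0.48. *Per2* and *Cry1*, repressors too, had positive values. *Per2* differed by 0.49 and 0.56 and *Cry1* by 0.41 and 0.58. *Bmal1*, the activator, differed by 0.32 and 0.38 and *Dbp*, a target of the clock, by 0.10 and 0.080. In the LO channel *Per2* differed by 0.55 and 0.40 and *Cry1* by 0.68 and 0.41, the same side as in the controls. The sources used here give a dosing window in the afternoon but no time of dissection.

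In bile acid synthesis and transport 2 of 15 genes were higher in pool 1 and 0 in pool 2, with a median of 0.11. *Cyp7a1*, the rate-limiting enzyme of bile acid synthesis from cholesterol, read 1.20 and 1.55 in pool 1 against 0.45 and 0.52 in pool 2, 1.85-fold (0.89 ± 0.20). Both pool 1 values were on top, and under LO the differences were 0.59 and 0.55, short of the rule in Cy5. *Slco1b2*, an uptake transporter of bile acids, read 4.97 and 4.76 in pool 1 against 4.32 and 4.14 in pool 2, 1.55-fold. *Slco1a1*, a related transporter, differed by 0.58 and 0.61, *Akr1d1* by 0.67 and 0.44. *Cyp8b1*, which sets the share of cholic acid, lay on the other side with -0.43 and -0.68, and passed the rule in LO with -0.85 and -0.62.

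Zonation was mixed. Of 12 pericentral genes 2 were higher in pool 1, *Cyp7a1* and *Axin2*. *Axin2*, a feedback target of Wnt signalling, read -2.00 and -1.34 in pool 1 against -2.64 and -1.99 in pool 2. The pools overlapped across dyes, while within a dye the differences were 0.64 and 0.65. After normexp the mean difference of *Axin2* was 0.18. Of 15 periportal genes 1, the mitochondrial aldehyde dehydrogenase gene *Aldh1b1*, was higher in pool 2. It read 0.33 and -0.21 in pool 1 against 0.99 and 0.58 in pool 2. The medians of both zone lists were above 0, 0.21 for pericentral and 0.16 for periportal genes.

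Of 41 xenobiotic genes 3 were higher in pool 2 and 0 in pool 1, with a median of 0.026. Besides *Cyp2b12* these were *Cyp2d4* and *Nqo1*. *Cyp2d4* read 3.42 and 3.43 in pool 1 against 4.08 and 4.17 in pool 2, and was called in LO too. Its other compared probe differed by only -0.16 and -0.060. *Nqo1*, a quinone reductase induced by oxidative stress, read -1.85 and -2.24 in pool 1 against -1.14 and -1.62 in pool 2. *Cyp3a9* differed by 0.55 and 0.72 and *Gstm3* by -0.48 and -0.86, neither past 1.5-fold in both dyes.

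In fatty acid and triglyceride synthesis 1 of 16 genes was called. *Elovl6*, which elongates palmitate, read -0.034 and 0.15 in pool 1 against -0.70 and -0.59 in pool 2, 1.63-fold. The list median was -0.047, and *Fasn*, the fatty acid synthase gene, differed by -0.17 and -0.15. In cholesterol synthesis 0 of 19 genes were called, with a median of 0.0044, and *Sqle*, the squalene epoxidase gene, differed by 0.37 and 0.55. Fatty acid oxidation (0 of 24, median -0.021), gluconeogenesis and amino acid breakdown (0 of 21, median 0.11) and the growth hormone, IGF and insulin genes (0 of 15, median 0.11) held no call either. These counts hold for the brightest probe of each gene. A dimmer probe of *Igfbp4*, in the last of these lists, was called for pool 1 (0.61 and 0.60). A dimmer probe of *Dgat1*, in the fatty acid and triglyceride synthesis list, was called for pool 2 (-0.61 and -0.74). *Pck1*, the key enzyme gene of gluconeogenesis, differed by 0.55 and 0.29 at its brightest probe and by 0.10 and -0.26 at its other one.

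Sex-dependent liver genes, which differ between males and females under growth hormone, held no call. Of 19 genes 17 had a positive difference and 0 were called, with a median of 0.26 (0.22 to 0.34 under the other scalings). *Cyp2c12*, a female-type P450 of rat liver, read 1.25 and 1.15 in pool 1 against 0.56 and 0.57 in pool 2. Its differences were 0.69 and 0.58, the latter just short of 1.5-fold, and under LO they were 0.66 and 0.71, a call. *Cyp2c11*, the male-type P450, differed by 0.085 and -0.063.

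Heat shock and chaperone genes, which help proteins fold, held no call either. Of 16 genes 15 had a positive difference and 0 were called, with a median of 0.28 (0.23 to 0.34 under the other scalings). *Hsp90aa1*, the stress-inducible cytosolic HSP90, read 5.55 and 5.52 in pool 1 against 4.83 and 4.94 in pool 2 at its brightest probe, and *Hsp90ab1*, the constitutive form, differed by 0.65 and 0.46. *Hspb1*, the small heat shock protein, lay on the other side with -0.51 and -0.55.

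Inflammation lists held no call. Of 21 acute phase genes 18 had a negative difference, with a median of -0.16 that lay between -0.21 and -0.050 under the other scalings. The count of 18 fell to 13 after quantile normalization and to 14 after cyclic loess and after normexp. Over all 16828 probes, 8078 mean differences were below 0 and 8750 above. *Hp* (haptoglobin) differed by -0.19 and -0.52, and *Socs3*, the feedback inhibitor of IL-6 signalling, by -0.66 and -0.41. Of 13 chemokine, interleukin and NF-kB target genes 9 had a positive difference, with a median of 0.26. *Cxcl10* differed by 0.58 and 0.52. *Cxcl1*, a neutrophil chemokine, read -0.47 and -0.24 in pool 1 against -0.59 and -0.63 in pool 2. Of 19 interferon and antigen processing genes 0 were called, and the sign of their median of -0.074 turned to 0.057 after quantile normalization and 0.048 after cyclic loess. Of 17 immediate early and stress genes 0 were called. *Ddit4* differed by -0.30 in Cy3 and -1.22 in Cy5, a gap between dyes of the size of the larger pool differences.

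Of 14 cell cycle genes 1 was called on each side. *Birc5* (survivin) read -0.45 and 0.17 in pool 1 against -1.23 and -0.55 in pool 2. *Hmmr*, the hyaluronan receptor of the mitotic spindle, read 0.36 and 0.56 in pool 1 against 1.73 and 1.72 in pool 2, 2.41-fold the other way. *Plk1* and *Cdk1*, kinases that drive mitosis, differed by -0.40 and -0.14 and by -0.099 and 0.15. Of 9 metallothionein, metal and glucocorticoid response genes only *Per1* was called, while *Fkbp5*, a glucocorticoid target, differed by 0.28 and 0.26. Of 12 housekeeping genes 0 were called. *Gapdh*, read from a probe printed 10 times, was at 6.97 and 7.00 in pool 1 and 6.82 and 6.84 in pool 2, 1.11-fold, while its other probe lay on the other side with -0.34 and -0.26. *Hprt1* had the largest housekeeping difference at 0.49 and 0.55.

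Cell type markers gave 3 calls, all for pool 2. Of 10 hepatocyte genes 0 were called. *Alb* (albumin) read 9.55 and 9.26 in pool 1 and 9.43 and 9.42 in pool 2, overlapping values, while *Hnf4a*, the master regulator of hepatocytes, differed by -0.53 and -0.70. The list median of -0.13 turned to 0.068 after quantile normalization. All 7 Kupffer cell and macrophage genes had a negative difference at their brightest probe, from -0.37 to -0.098, and 0 were called. Their median lay between -0.23 and -0.11 over all scalings. Another probe of *C1qc* differed by 0.19 and -0.15. Sinusoidal endothelium (0 of 5, median 0.054), stellate cells and fibroblasts (0 of 8, 0.012), T and NK cells (0 of 5, -0.15), erythroid cells (0 of 4, 0.070), neutrophils (0 of 2, 0.22), adipocytes (0 of 2, -0.21) and enterocytes (0 of 2, -0.087) held no call. No B or plasma cell gene was compared.

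*Cldn4*, a claudin of bile duct and other epithelia, read -0.40 and -0.99 in pool 1 against 0.34 and 0.36 in pool 2, and was called in LO as well. The other 4 cholangiocyte genes were not called, and of the genes that define these cells *Krt19* differed by 0.10 and -0.11 and *Epcam* by 0.017 and 0.00010. *Cel*, the bile salt-stimulated lipase of the pancreas, read -2.63 and -2.89 in pool 1 against -1.93 and -1.63 in pool 2. Of 5 exocrine pancreas genes it alone was called, and 4 of the 5 had a negative difference (median -0.48). *Msln* (mesothelin), the surface protein of the mesothelium that covers the liver, read -0.069 and -0.30 in pool 1 against 0.84 and 0.50 in pool 2, 1.81-fold. It was the 1 gene called of 3 in its list of muscle and mesothelium genes, where *Mb* (myoglobin) differed by -0.56 and -0.67 and *Krt8*, a keratin that hepatocytes make too, by 0.38 and 0.11. Under LO *Msln* differed by only -0.14 and -0.10. The difference between these control and LO values was not tested.

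The LO channel of the same arrays gave the same measure in other RNA pools. There 516 (3.01%) of 17134 probes were higher in pool 1 and 1174 (6.85%) in pool 2, together 9.86%. Among the 16332 probes compared in both, 265 were called for pool 1 in both channels, 51.2% of the control calls and 52.9% of the LO calls. For pool 2 it was 791, 71.5% and 80.2%. No probe was called in opposite directions. Control and LO values in the same dye came from different arrays and different RNA. Over these probes r was 0.77 between the control and the LO difference in Cy3 and 0.79 in Cy5. Between channels that shared arrays r was 0.87 and 0.93.

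LO against control within a pool gave a yardstick for the size of these differences, chosen after the values had been seen. In a single dye these also compared different arrays. Over the 16332 probes the SD of LO minus control was 0.26 in Cy3 and 0.24 in Cy5 in pool 1, and 0.24 and 0.22 in pool 2. The SD of the pool difference of the controls was 0.44 and 0.51. Past 1.5-fold in a single dye were 2350 (Cy3) and 3423 (Cy5) probes between the pools, against 498 and 627 probes for LO in pool 1 and 351 and 291 for LO in pool 2. By the rule of both dyes, LO against control gave 11 probes (0.0674%) in pool 1 and 12 (0.0735%) in pool 2, although array effects that are shared by the 2 dyes have opposite signs there and cannot pass the rule by themselves. They can also hide an LO difference from that rule. In the mean of both dyes such effects cancel for LO against control, but not between the pools. By that mean 32 probes (0.196%) in pool 1 and 33 (0.202%) in pool 2 passed 1.5-fold for LO. Between the pools of the controls 2648 (16.2%) passed.

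Copies of a probe were compared next. Of 132 probes with all 10 copies compared, the median SD between copies of the pool difference was 0.094 in Cy3 and 0.092 in Cy5. Copies of single probes lay far wider, as for *Tbp*, a general transcription factor gene, with -2.99 to 0.18 in Cy3. Called were 8 of the 132 probes, 4 on each side, where 9.99% of all probes compared were called. In all 8 every copy lay on the same side of 0 in both dyes. The 8 were called from the mean of these same copies, so this adds no support. *Itgb1*, an integrin subunit, differed by 0.92 to 1.12 over its copies in Cy3 and by 0.76 to 1.08 in Cy5. *Stat3*, which carries IL-6 signals, ranged from 0.37 to 0.86 and from 0.73 to 0.95. On the side of pool 2, *Grin1*, a subunit of the NMDA receptor, ranged from -0.97 to -0.55 and from -1.34 to -0.86. *Crhr2*, a receptor of the CRH family, *Hcrt*, the orexin gene, and *Bdkrb2*, a bradykinin receptor, were the other 3 named genes.

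Different probes of the same gene agreed less closely. For 961 genes with several probes compared, r was 0.30 between the pool differences of 2 probes of a gene (1345 pairs), while the 2 dyes of the same 2093 probes gave 0.67. Of 82 such genes with a probe higher in pool 1, all probes were called in 2, all lay on that side in 58, and in 2 genes another probe was called the other way. The called probes had a median of 0.76 and the other 111 probes of these genes 0.28. Of 44 genes with a probe higher in pool 2, all probes were called in 4, all lay on that side in 33, and 2 had a probe called the other way. There the medians were -0.83 and -0.16.

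*Nr2f1*, a nuclear receptor also called COUP-TFI, showed this among the leading genes. Its called probe read -2.46 and -2.60 in pool 1 against -0.47 and -0.58 in pool 2, while its other probe differed by 0.41 and 0.23. *Gnb1*, a beta subunit of G proteins, had 5 probes. The called one differed by 0.98 and 1.04, another was called the other way with -0.70 and -0.68, and the remaining 3 differed by 0.36 and 0.37, by 0.57 and 0.40, and by -0.024 and -0.032. The second probe of *Jam2* differed by -0.40 and -0.71. Brighter probes of *Mtmr9* (0.42 and 0.54), *Ilrun* (0.44 and 0.43 at its brightest) and *Sft2d2* (0.063 and -0.23) were not called.

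*Hsp90aa1* had 4 probes, of which 2 were called for pool 1, at 1.10 and 1.37 and at 0.82 and 0.94. Its brightest differed by 0.73 and 0.58 and the last by -0.092 and -0.15. *Insig1*, which holds back cholesterol synthesis, was not called at its brightest probe (0.43 and 0.31), but 2 of its other probes were, with 0.97 and 0.90 and with 0.89 and 0.82. *Apob*, the apolipoprotein of VLDL, differed by -0.54 and -0.49 at its brightest probe and by 0.60 and 0.75 at another, which was called for pool 1. A call thus held for the probe, and for these genes the pool difference of the gene depended on the probe read.

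**Figure D5:**
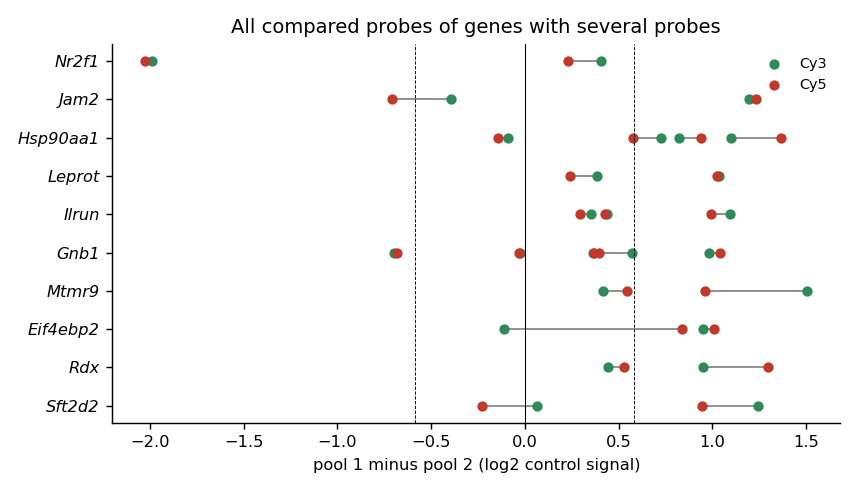
Pool 1 minus pool 2 (log2 control signal, x axis) for every compared probe of the leading genes that had several probes, each gene on its own line. Green points are Cy3, red points Cy5, and a grey line joins the dyes of a probe. Dashed lines mark 1.5-fold. The dyes of a probe mostly lie close together, while the probes of *Nr2f1*, *Jam2*, *Gnb1*, *Hsp90aa1* and *Sft2d2* lie on both sides of 0 by the mean of their dyes.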

How the data were processed

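The authors hybridized control and LO RNA pools together on rat 4x44K arrays, and the control carried Cy3 on replicate 1 and Cy5 on replicate 2 per the labels. The deposited intensity columns hold linear Cy3 and Cy5 signals, already corrected for background and dye by Agilent Feature Extraction (version 11.0.1.1, from the submitters' processing notes). The deposited table of log10 ratios of the 2 dyes was not used, since it holds no control level. Control features and features flagged as non-uniform were left out. Signals were turned to log2, scaled to the median of features well above background on all 4 arrays, and averaged over copies of a probe. The call was 1.5-fold in both dyes, with no statistical test. The number of arrays limits the precision, and 1 RNA per pool leaves no biological replicate.

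Identifiers were matched without version to RefSeq symbols of assembly GRCr8, and 10768 of 41012 probes had 1 symbol. Coordinates are not given, since the builds differ. Probe sequences were not used here. A gene among the probes printed 10 times is not reported here. The genes, lists and families were chosen with earlier results of these data known. Named were the 15 genes in each direction with the largest value of the smaller of the 2 dyes' differences, up to 4 members of each list with the largest differences, *Gapdh*, *Alb*, *Cyp2c12* and *Cxcl1*, and at most 5 genes in each direction above background in 1 pool only. Other list members, probes printed 10 times and receptor probes were named after their values had been seen.

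The alternatives were 75th percentile scaling, quantile normalization, cyclic loess and normexp with an offset of 50 on the deposited median signal and median background intensities. Others were a filter at 2 arrays or none, flagged features kept, saturated or population outlier features left out, copies kept apart, 2-fold, the mean of the dyes, and each replicate left out. The calling rule was tested on simulated data, with planted differences well past the cut and the same noise at all signal levels. Calls near the cut and array effects on single probes were not simulated. limma 3.58.1 ran in R 4.3.3, and the rest in pandas 2.3.3 and numpy 2.4.6 under Python 3.11.15 (figures in matplotlib 3.10.9).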

Additional observations from a re-analysis of the deposited data

Results flagged for a closer look

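Among the 144 probes named by rule, those of 2 genes differed between the pools in opposite directions in control and LO RNA, on every array. *Mt1*, a metallothionein gene that answers to metals and glucocorticoids, differed by 0.29 (Cy3) and 0.28 (Cy5) in the controls, pool 1 higher, and by -0.44 and -0.45 under LO, pool 2 higher. The control minus the LO difference was 0.73 on the log2 scale. *Slc4a1*, the anion exchanger of red blood cells, differed by 0.051 and 0.0091 in the controls and by -0.040 and -0.16 under LO, a gap of 0.13. That gap was close to the median SD between the 2 dyes for a probe, 0.11, so it lay near the technical spread. Neither gene was called in either channel, and the difference between control and LO was not tested.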

How the results depend on the processing

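Of 56 recounts of the 4 counts of called probes (control and LO channel, higher in pool 1 and in pool 2), 29 stayed within 1.5 times the value given, and in all 28 pairs more probes were higher in pool 2 than in pool 1. Counts below are given for the controls first and the LO channel second, each as pool 1 and pool 2. With normexp and an offset of 50 they were 128 and 300, then 155 and 386. With a filter at 2 arrays they were 841 and 2650, then 852 and 2225, and with no filter on dim probes 1289 and 4762, then 1281 and 4983, since more probes were compared. At 2-fold they were 18 and 310, then 9 and 260. The 75th percentile scaling gave 328 probes higher in pool 1 in the LO channel, and the cause was not tested. The replicate number is the dye, and each pool is paired with the other within it. With no replicate block, by the mean over both dyes, 1015 and 1745, then 930 and 1922 probes passed. With either replicate left out, a single dye gave between 975 and 1409 probes higher in pool 1 and between 1487 and 2180 in pool 2 in the controls, and between 925 and 1292 and between 1487 and 2374 in the LO channel. Of 484 recomputed mean differences of the 44 called named probes 0 changed sign and 19 were under 1.5-fold, 18 of them with normexp and that of *Nqo1* with quantile normalization (-0.54). Leaving out population outlier features and counting receptor probes under each alternative were chosen after seeing the data. Signal over background limits the dim probes, where most calls lay, and arrays without biological replicates allow no statement on rats.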
